A study of Mus musculus with 6 samples.

Results

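The 10 genes described here mark T cells and the lymphocytes that live between the cells of the gut epithelium: the T cell receptor complex (Cd3d, Cd3e, Cd3g), the coreceptors (Cd4, Cd8a, Cd8b1), the granzymes (Gzma, Gzmb), and a homing integrin and a receptor of intraepithelial lymphocytes (Itgae, Cd160). They were taken by symbol from a table of 24517 genes, and all 10 were found and passed the filter on low counts that left 16347 genes for testing. RNA was sequenced from colon tissue of mice on a 16-week high-fat, high-cholesterol diet (HFCD, per the labels). NSD2fl/fl mice carried loxP-flanked alleles of Nsd2, a histone methyltransferase gene, and served as controls (3 libraries). In NSD2∆IE mice the gene was deleted in the intestine by Villin-Cre, which is active in epithelial cells, so lymphocytes themselves should keep it (3 libraries). Per the methods, all animals were on a C57BL/6J background, were young adult male littermates when the diet started, and received HFCD for somewhat longer than the labels state. The methods do not say whether the controls carried Cre. Nothing in the labels says that the 3 libraries of a group came from separate animals, so the p-values measure the spread between these libraries only.

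A T cell recognises antigen through its receptor, whose signal is carried into the cell by the CD3 chains. CD4 and CD8 bind the presenting MHC molecule next to the receptor. CD8 on conventional cytotoxic T cells is a pair of alpha and beta chains, whereas many intraepithelial lymphocytes of the gut carry CD8 as a pair of alpha chains. Intraepithelial lymphocytes are held in place by the integrin of which Itgae encodes the alpha chain (CD103), which binds E-cadherin on epithelial cells, and store granzymes for killing stressed or infected cells.

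Library totals lay between 38041832 and 38604680 counts. Nsd2, the targeted gene, was lower in every NSD2∆IE library, with 23.1 to 27.5 CPM (counts per 1000000, scaled by TMM factors) against 47.8 to 68.9 CPM in NSD2fl/fl. The sex-linked genes went against the stated sex in the deleted group. Xist, made by female cells, had 21217 to 24234 counts in the NSD2∆IE libraries and at most 4 in the NSD2fl/fl libraries, and 4 Y-linked genes together had at most 1 count in the former and at least 5058 in the latter. Genotype and sex therefore cannot be told apart here. The libraries also fell into 2 sets across the genotypes. On the first principal component of all other tested genes (50.8% of variance), NSD2∆IE replicate 1 lay on the same side as NSD2fl/fl replicates 1 and 3. Hoxb13, a transcription factor gene of the distal gut, was at 310.01 to 365 CPM in these 3 libraries and at 0.706, 4.97 and 26.2 CPM in NSD2fl/fl replicate 2, NSD2∆IE replicate 2 and NSD2∆IE replicate 3. The labels give no position along the colon. The sets are called high Hoxb13 and low Hoxb13 below. Low Hoxb13 held 1 control and 2 deleted libraries, so differences between the genotypes are also given within the sets for the members and for the wider-list genes past the threshold that are named.

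The members are spread over 6 chromosomes (GENCODE M21, GRCm38, the assembly that the submitters name as mm10). Cd3g, Cd3d and Cd3e lie side by side on chromosome 9, with 1354 bases between Cd3g (44969572 to 44980431, minus strand) and Cd3d (44981786 to 44987339, plus strand), and Cd3e follows at 44998740 to 45009627 on the minus strand. Cd8b1 (71322788 to 71337494) and Cd8a (71373427 to 71379173) are neighbours on the plus strand of chromosome 6, which also holds Cd4 (124864692 to 124888221). Gzma is on chromosome 13 (113093825 to 113100981), Gzmb on chromosome 14 (56258838 to 56262260), Itgae on chromosome 11 (73090583 to 73147446) and Cd160 on chromosome 3 (96798763 to 96829351). All are protein-coding. Exons of Cd160 overlap those of Pdzk1 on the opposite strand, and exons of Cd3e overlap those of Gm48719. The use of strand in counting is not given in the sources used here, so such reads cannot be told apart, but Pdzk1 had at most 19 counts in a library where Cd160 had at least 51.

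Promoters are shown for the Cd3g and Cd3d genes, which start back to back, and for the granzymes, which varied most across the libraries. RefSeq promoter sequence (GRCm38.p6) was at hand for 7 of the 10 members. Each line gives the 250 bases before the RefSeq start site, 5′ to 3′ on the strand of the gene. Capitals mark 3 motif cores searched on either strand: the RUNX core TGTGGT, the ETS core GGAAGT and, for the GATA family, the letters AGATAA.
Cd3g (chr9:44980432-44980681, minus strand): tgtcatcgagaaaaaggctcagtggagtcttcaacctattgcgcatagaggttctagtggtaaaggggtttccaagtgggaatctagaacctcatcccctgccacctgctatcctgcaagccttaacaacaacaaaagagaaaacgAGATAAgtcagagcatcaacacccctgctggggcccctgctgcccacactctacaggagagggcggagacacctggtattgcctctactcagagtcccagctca
Cd3d (chr9:44981536-44981785, plus strand): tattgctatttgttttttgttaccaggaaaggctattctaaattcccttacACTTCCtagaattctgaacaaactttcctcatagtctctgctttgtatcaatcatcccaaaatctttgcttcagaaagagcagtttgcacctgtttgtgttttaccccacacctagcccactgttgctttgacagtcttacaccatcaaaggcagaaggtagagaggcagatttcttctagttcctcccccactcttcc
Gzma (chr13:113100982-113101231, minus strand): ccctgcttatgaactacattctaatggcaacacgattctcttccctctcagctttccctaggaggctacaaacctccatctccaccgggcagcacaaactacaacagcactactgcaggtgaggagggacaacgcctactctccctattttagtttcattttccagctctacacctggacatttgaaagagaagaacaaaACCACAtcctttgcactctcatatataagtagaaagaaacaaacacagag
Gzmb (chr14:56262335-56262584, minus strand): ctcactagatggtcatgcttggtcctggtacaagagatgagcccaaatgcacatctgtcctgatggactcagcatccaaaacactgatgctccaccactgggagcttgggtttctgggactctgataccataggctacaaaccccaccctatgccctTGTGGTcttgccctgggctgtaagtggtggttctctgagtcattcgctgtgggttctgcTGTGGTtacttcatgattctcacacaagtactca
The RefSeq start of Gzmb lies upstream of the GENCODE start. The RUNX core was found at a single place in Gzma and at 2 places in Gzmb, and in 14.0% of the 32851 promoter windows of this length. The ETS core was found in the Cd3d window (19.7% of all windows) and the GATA core in the Cd3g window (9.99%). A match describes these letters and is no evidence of binding.

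Between the genotypes, Cd8b1 stood apart from the other members. It was higher in every NSD2∆IE library, by 2.34-fold, while the other 9 genes overlapped between the groups. Of the 10 members, 0 had an adjusted p under 0.05 with the quasi-likelihood test of edgeR (0.0306% of all tested genes did, 0.00612% higher and 0.0245% lower), and 1, Cd8b1, had an unadjusted p under 0.05. The study called genes by an unadjusted p under 0.05 and a log2 fold change beyond 0.32 in size. By this rule 1 member was higher and 0 were lower, where 8.05% of all tested genes were higher and 2.21% lower (10.5% and 0.869% with library totals alone in place of TMM). Cd8b1 was also the only member whose groups did not overlap, as was the case in this direction for 11.4% of all genes (7.28% in the other direction). By the threshold and by the lack of overlap, 1 of 10 members is near the share of all genes. The median log2 fold change of the members was 0.48 and that of all tested genes -0.04, with 9 members above 0, as were 43.7% of all genes. In whole tissue, more T cells and more RNA per cell cannot be told apart.

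**Figure D1:**
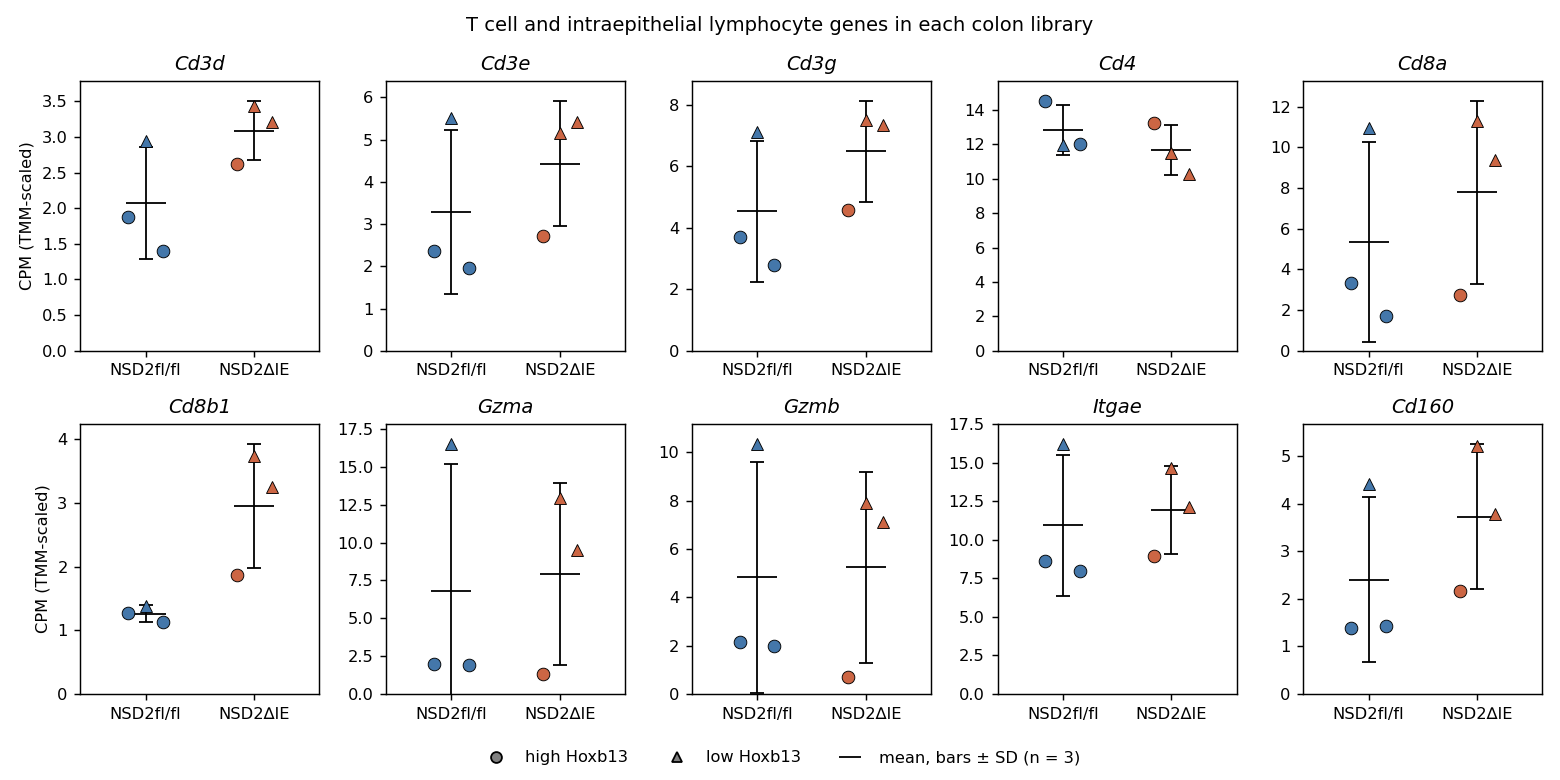
TMM-scaled CPM of the 10 genes (y axis, linear from 0) in each library by genotype (x axis); circles are libraries of high and triangles of low Hoxb13, and the black line and bars give mean ± SD (n = 3), with the lower bar of Gzma ending below the axis. Cd8b1 is higher in all 3 NSD2∆IE libraries, Cd4 is level, and the other genes are highest in the triangles of both genotypes.

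Of the receptor complex, Cd3d encodes the delta chain of CD3. It had 1.87, 2.94 and 1.40 CPM in NSD2fl/fl replicates 1 to 3 and 2.62, 3.43 and 3.21 CPM in NSD2∆IE replicates 1 to 3. NSD2fl/fl replicate 2 lay above NSD2∆IE replicate 1, so the groups overlapped. The log2 fold change was 0.58 (SE 0.328, 95% interval -0.21 to 1.36), with an adjusted p of 0.576. Cd3e, the epsilon chain, had 2.36, 5.51 and 1.97 CPM in NSD2fl/fl and 2.72, 5.15 and 5.42 CPM in NSD2∆IE. Its highest value was a control. Its log2 fold change was 0.43 (SE 0.467, 95% interval -0.68 to 1.55) and its adjusted p 0.758. Cd3g, the gamma chain, had 3.71, 7.12 and 2.78 CPM against 4.59, 7.52 and 7.35 CPM. NSD2fl/fl replicate 2 was again close to NSD2∆IE replicates 2 and 3. The log2 fold change of Cd3g was 0.52 (SE 0.391, adjusted p = 0.666). For each chain the 3 libraries of low Hoxb13 were the highest and NSD2fl/fl replicate 3 was the lowest.

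The coreceptors followed 3 different patterns. Cd4, carried by helper and regulatory T cells and at low level by some myeloid cells, varied least of the members. It had 14.5, 11.98 and 12.05 CPM in NSD2fl/fl and 13.2, 11.5 and 10.3 CPM in NSD2∆IE. Its log2 difference was -0.14 (SE 0.163, adjusted p = 0.78). The 95% interval, -0.53 to 0.25, corresponds to folds from 0.694 to 1.19. Cd8a, the alpha chain, had 3.35, 10.9 and 1.71 CPM in NSD2fl/fl and 2.72, 11.3 and 9.38 CPM in NSD2∆IE. The 3 libraries of low Hoxb13 were all above 9 CPM and the others all below 4 CPM, whatever the genotype. The log2 fold change was 0.55 (SE 0.762, 95% interval -1.27 to 2.36, adjusted p = 0.814). Cd8b1, the beta chain, had 49, 49 and 40 counts in NSD2fl/fl and 74, 148 and 135 counts in NSD2∆IE. In CPM these were 1.27, 1.38 and 1.12 against 1.87, 3.73 and 3.25. The lowest deleted library lay above the highest control, and NSD2fl/fl replicate 2, high for Cd8a, was not high for Cd8b1. The mean of Cd8b1 was 1.26 ± 0.131 CPM in NSD2fl/fl and 2.95 ± 0.97 CPM in NSD2∆IE (SD, n = 3 each). Its log2 fold change was 1.23 (SE 0.331, 95% interval 0.44 to 2.01). By edgeR the unadjusted p was 0.00801, or 0.312 when adjusted over all genes. DESeq2 gave an adjusted p of 0.0472, and the 16 alternatives together ranged from 0.0472 to 0.99. DESeq2 called 2.59% of all genes higher.

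The granzymes, serine proteases that cytotoxic lymphocytes release into target cells, had the widest spread. Gzma had 2.00, 16.5 and 1.91 CPM in NSD2fl/fl and 1.31, 12.97 and 9.497 CPM in NSD2∆IE, a 12.6-fold range. Gzmb had 2.13, 10.3 and 1.99 CPM against 0.706, 7.90 and 7.13 CPM, a 14.6-fold range. For either gene the highest library was NSD2fl/fl replicate 2 and the lowest NSD2∆IE replicate 1. That lowest Gzmb value rested on 28 counts, with an exact 95% Poisson interval of 18.6 to 40.5 counts, which covers counting error only. The log2 fold changes were 0.22 for Gzma (SE 1.06, adjusted p = 0.95) and 0.12 for Gzmb (SE 0.955, adjusted p = 0.971). The 95% interval of Gzma ran from -2.29 to 2.74, so changes of several fold in either direction were not detectable with this spread. The other granzymes of the wider list were scarce, with at most 1.89 CPM for Gzmk, 0.959 CPM for Gzmm and 13 counts for Gzmc.

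Itgae had 8.65, 16.2 and 7.97 CPM in NSD2fl/fl and 8.98, 14.7 and 12.1 CPM in NSD2∆IE. The groups overlapped fully, and the log2 fold change was 0.13 (SE 0.325, 95% interval -0.65 to 0.90, adjusted p = 0.904). Cd160, a receptor on cytotoxic and intraepithelial lymphocytes that binds the herpesvirus entry mediator (Tnfrsf14), had 1.38, 4.41 and 1.43 CPM in NSD2fl/fl and 2.17, 5.22 and 3.78 CPM in NSD2∆IE. NSD2fl/fl replicate 2 lay between the NSD2∆IE values. Its log2 fold change was 0.63 (SE 0.553, 95% interval -0.69 to 1.95, adjusted p = 0.709).

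NSD2fl/fl replicate 2, the only control of low Hoxb13, moved these counts most. Without it, 6 members were higher at the threshold of the study, Cd3d, Cd3e, Cd3g, Cd8a, Cd8b1 and Cd160, against 9.3% of all genes tested in that fit, and their log2 fold changes were 0.91, 1.03, 0.99, 1.61, 1.30 and 1.41. Their adjusted p-values were then at least 0.325. With the side of the first principal component as a covariate and all 6 libraries, 1 member was higher, Cd8b1, and 2 were lower, Gzma and Gzmb, where 8.98% of all genes were higher and 3.32% lower.

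Within the sets, the genotype difference in log2 CPM of Cd8b1 was 0.62 at high Hoxb13 (1 deleted library against 2 controls) and 1.30 at low Hoxb13 (2 against 1). No test was made within a set. With the covariate, the log2 fold change of Cd8b1 was 0.99 (SE 0.304, unadjusted p of 0.0141, edgeR adjusted p of 0.318). The granzymes turned direction. Gzma was lower within either set, by -0.56 and -0.57, and its log2 fold change with the covariate was -0.56 (SE 0.207, unadjusted p of 0.0297, edgeR adjusted p of 0.336). Gzmb differed by -1.48 and -0.46 within the sets and by -0.92 with the covariate (SE 0.296, unadjusted p of 0.0169, edgeR adjusted p of 0.318). The other 7 members had log2 fold changes between -0.08 and 0.42 in that fit. For Cd8a the value was 0.0050, with a 95% interval of -0.66 to 0.67, and its differences within the sets were 0.18 at high and -0.09 at low Hoxb13. Those of the CD3 chains were 0.68 and 0.17 for Cd3d, 0.33 and -0.06 for Cd3e, and 0.51 and 0.06 for Cd3g. Each chain thus differed less at low than at high Hoxb13. Cd160 differed by 0.61 and 0.01, Itgae by 0.11 and -0.28, and Cd4 by -0.00048 and -0.14.

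**Figure D2:**
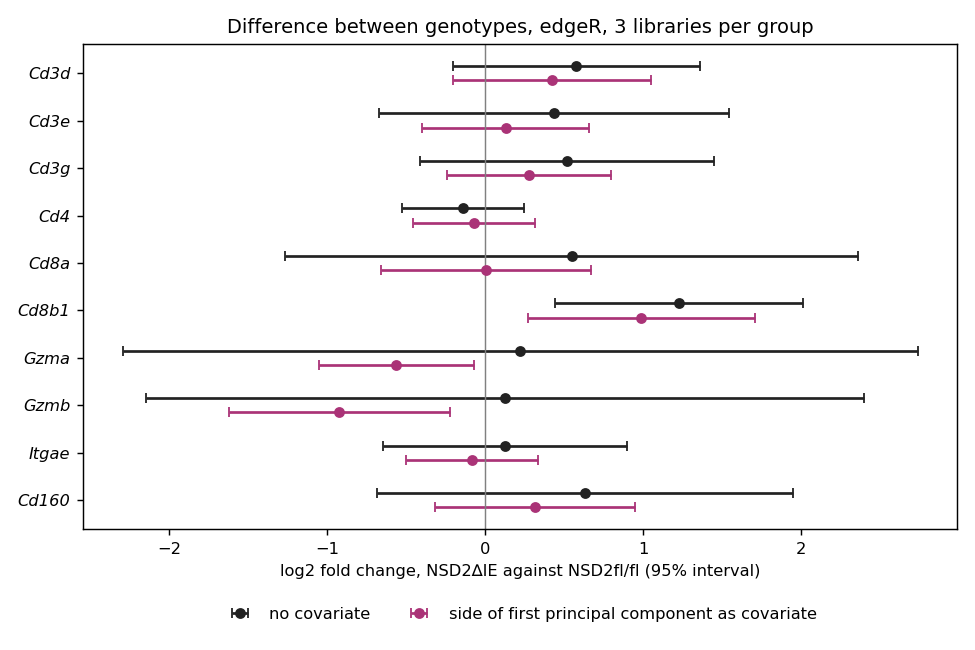
Log2 fold change of each gene in NSD2∆IE against NSD2fl/fl (x axis; points with 95% intervals from edgeR, 3 libraries per group) without a covariate (black) and with the side of the first principal component as a covariate (purple). The intervals of Cd8a, Gzma and Gzmb shrink with the covariate, Gzma and Gzmb move below 0, and Cd8b1 stays above 0 in either fit.

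Across the sets, 8 of the 10 members were higher in all 3 libraries of low Hoxb13 than in all 3 of high Hoxb13, as were 9.55% of all tested genes. Cd4 was lower in all 3 (12.8% of all genes), and Cd8b1 overlapped. For Cd4 the gap was narrow, with 424 counts in NSD2fl/fl replicate 2 (11.98 CPM) against 429 in NSD2fl/fl replicate 3 (12.05 CPM). The ratio of the set means was largest for Gzma (7.46), followed by Gzmb (5.25), Cd8a (4.06), Cd160 (2.69), Cd3e (2.28), Cd3g (1.98), Itgae (1.68) and Cd3d (1.62). It was 0.848 for Cd4. These sets were read from the data and are not groups of the study, so the ratios are descriptions. Of the 33 homing genes and epithelial partners of the wider list, 12 were higher and 8 lower in all 3 libraries of low Hoxb13, so these genes lay both ways. Among the 12 were the epithelial genes H2-T3, Btnl1 and Btnl6, named here after their values were seen, while Cdh1 and Cxadr overlapped (ratios of set means 0.802 and 1.247) and Cd1d1, which presents lipids to T cells, was lower (0.514). H2-T3, the thymus leukaemia antigen and a ligand of the CD8 alpha pair, had 8.83, 126 and 1.54 CPM in NSD2fl/fl and 13.2, 123 and 75.4 CPM in NSD2∆IE, a ratio of set means of 13.8. Btnl1, a butyrophilin-like epithelial protein that sustains gamma-delta intraepithelial lymphocytes, had 31.3, 120 and 16.6 CPM against 36.2, 119 and 80.3 CPM. Its partner Btnl6 had 81.3, 196 and 66.6 CPM against 78.3, 143 and 104 CPM. NSD2fl/fl replicate 2 had the highest value of all 3 genes. Ccr7, the chemokine receptor that guides lymphocytes to lymph nodes, lay the opposite way, with a ratio of set means of 0.37. All 9 B cell and follicle markers were lower in all 3 libraries of low Hoxb13, among them Ms4a1, which encodes the B cell surface protein CD20 (ratio of set means 0.163).

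**Figure D3:**
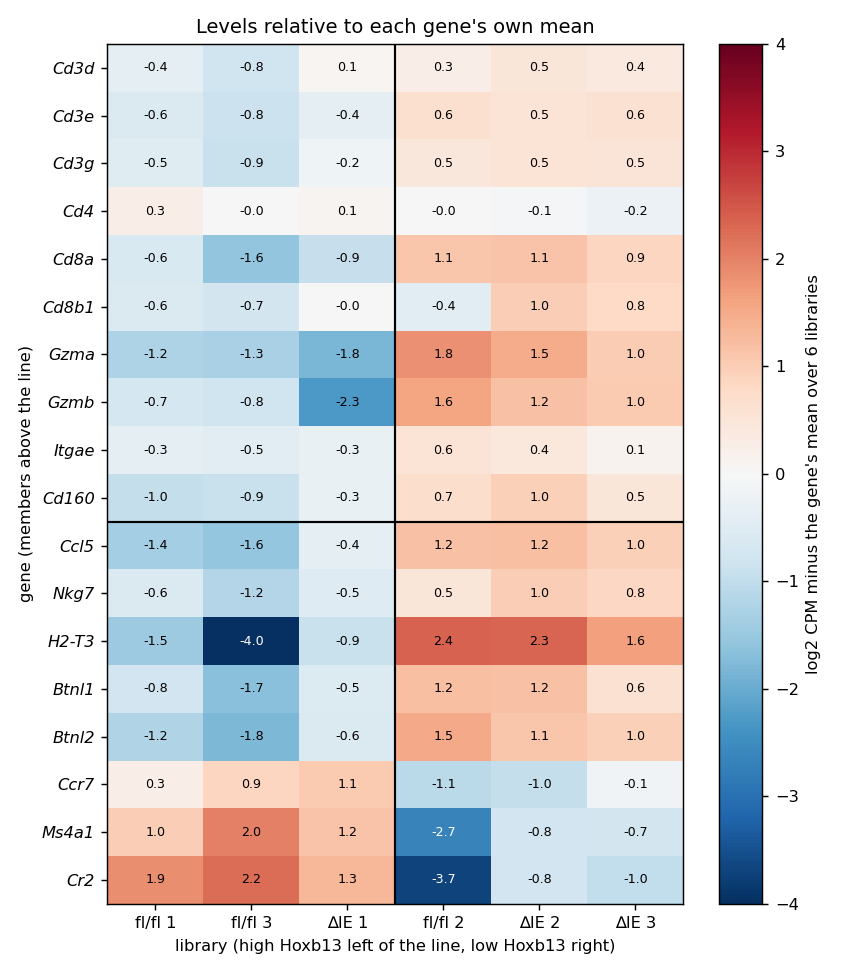
Log2 CPM minus the mean of the gene over the 6 libraries (colour and printed value) for the 10 members above the horizontal line and 8 further genes below it, with libraries of high Hoxb13 left and of low Hoxb13 right of the vertical line. Members other than Cd4 and Cd8b1 are higher on the right, as are Ccl5, Nkg7, H2-T3, Btnl1 and Btnl2, while Ccr7, Ms4a1 and Cr2 are lower there.

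Ratios within a library do not depend on its scaling. They were formed from FPKM, which divides by gene length, and set against CD3, the mean of Cd3d, Cd3e and Cd3g. With 3 libraries against 3, an exact permutation test (two-sided) cannot give a p under 0.1, and 9 ratios were tested. The ratio of Itgae to CD3 was 0.992, 0.953 and 1.19 in NSD2fl/fl and 0.825, 0.831 and 0.695 in NSD2∆IE. It was lower in all 3 deleted libraries and in either Hoxb13 set, with means of 1.04 ± 0.126 and 0.784 ± 0.0771 (SD, n = 3 per group; exact permutation p = 0.1, the smallest possible, and 0.6 after Benjamini-Hochberg adjustment). The ratio of Cd4 to CD3 was 1.95, 0.826 and 2.11 against 1.43, 0.763 and 0.691. It was highest in the 3 libraries of high Hoxb13 and overlapped between the genotypes (exact permutation p = 0.2, adjusted 0.6). That of Cd8a to CD3 was 0.5, 0.836 and 0.332 against 0.326, 0.831 and 0.698 (exact permutation p = 1). Gzma exceeded CD3 by 4.48, 3.39 and 2.51 in the libraries of low Hoxb13 and had ratios of 1.06, 1.32 and 0.557 in the others.

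The CD8 chains differed in balance between libraries. The ratio of Cd8b1 to Cd8a was 0.803, 0.268 and 1.39 in NSD2fl/fl and 1.45, 0.7 and 0.733 in NSD2∆IE. NSD2fl/fl replicate 2 had the least beta chain per alpha chain, and within either set the deleted libraries had more than the controls. At high Hoxb13, however, NSD2∆IE replicate 1 (1.45) and NSD2fl/fl replicate 3 (1.39) were close, on 74 and 40 counts of Cd8b1. Pooled over the sets the genotypes overlapped (exact permutation p = 0.8, adjusted 1). The ratio of Cd8b1 to CD3, chosen after its values were seen, was 0.401, 0.224 and 0.46 in NSD2fl/fl and 0.472, 0.581 and 0.512 in NSD2∆IE, with means of 0.362 ± 0.123 and 0.522 ± 0.0555 (SD, n = 3 per group). It was higher in all 3 deleted libraries, although NSD2fl/fl replicate 3 and NSD2∆IE replicate 1 were close.

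**Figure D4:**
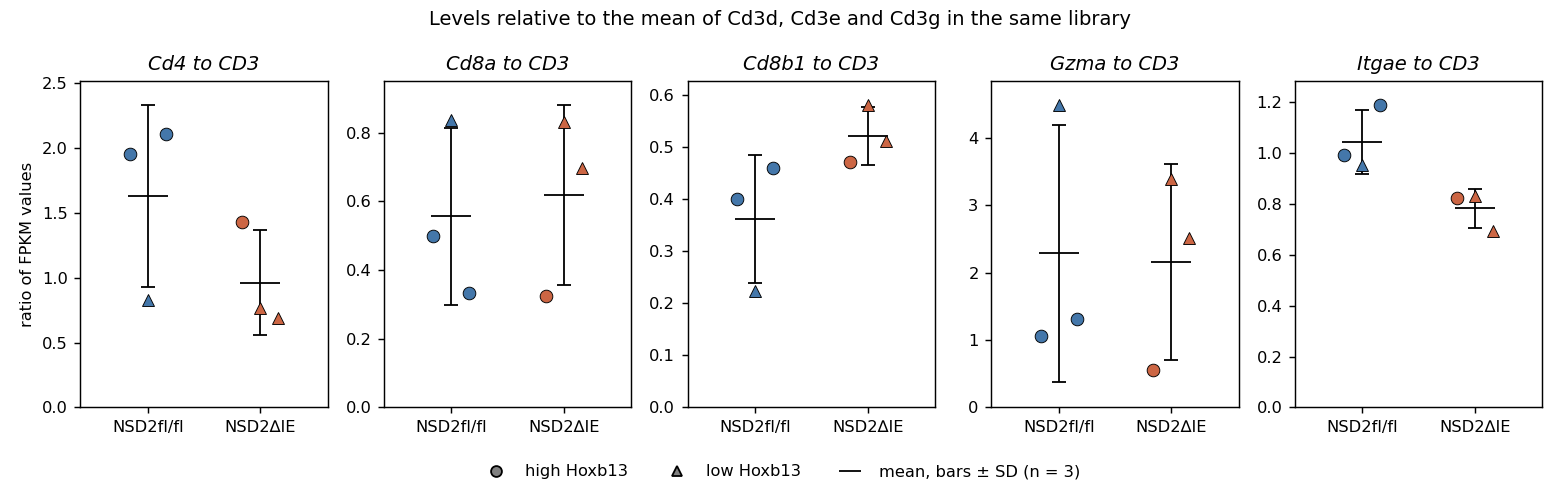
Ratio of the FPKM of Cd4, Cd8a, Cd8b1, Gzma and Itgae to the mean FPKM of Cd3d, Cd3e and Cd3g in the same library (y axis, linear from 0) by genotype (x axis); circles are libraries of high and triangles of low Hoxb13, and the line and bars give mean ± SD (n = 3). Itgae to CD3 is lower and Cd8b1 to CD3 higher in all 3 NSD2∆IE libraries, and Cd4, Cd8a and Gzma separate circles from triangles.

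Per length, all members were of low level. The mean FPKM over the 6 libraries was 8.32 ± 7.21 for Gzma, 5.43 ± 2.14 for Cd3g, 3.53 ± 0.44 for Cd4, 3.32 ± 2.54 for Gzmb, 2.81 ± 0.825 for Itgae, 2.56 ± 1.14 for Cd3e, 2.11 ± 1.42 for Cd8a, 1.72 ± 0.575 for Cd3d, 1.45 ± 0.825 for Cd8b1 and 1.17 ± 0.629 for Cd160 (SD, n = 6). Each pair of neighbours in this order differed by less than the larger of their SDs. Within the CD3 complex, Cd3g was above Cd3e and Cd3e above Cd3d in FPKM in all 6 libraries.

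Other T cell genes and genes of their partners, epithelial genes such as Epcam included, were read from a wider list of 132 symbols in 6 roles. Of these symbols 123 were in the table and 116 tested, and counts over the list are not counts of T cell genes alone. With edgeR 0 had an adjusted p under 0.05 and 11 an unadjusted p under 0.05. DESeq2 gave 4 higher genes of the 116 at an adjusted p under 0.05 (Prkcq, Rgs1, Satb1 and Thy1), where it called 2.59% of all genes higher. The count with limma-voom was 0. At the threshold of the study, 10 were higher and 1 lower, or 8.62% and 0.862% of those tested, beside 8.05% and 2.21% of all tested genes. The share of higher genes was thus near the background, and the counts by role below are to be read against it. The median log2 fold change was 0.14. Without NSD2fl/fl replicate 2 the count of higher genes was 27, beside 9.3% of all genes tested in that fit. The controls left in that fit were all of high Hoxb13. Without NSD2∆IE replicate 3 the count was 4. Without NSD2fl/fl replicate 3 it was 6 and without NSD2∆IE replicate 2 it was 5. The share of all genes is given only for the fit without NSD2fl/fl replicate 2.

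Among receptor chains, only Cd247, the zeta chain, was tested, and the constant regions of the receptor itself were not analysed here. Cd247 had 1.53, 1.75 and 1.54 CPM in NSD2fl/fl and 2.67, 2.15 and 2.24 CPM in NSD2∆IE, with no overlap (log2 fold change 0.55, SE 0.245, edgeR adjusted p = 0.474). Of 29 signalling genes, 4 were higher and 1 was lower. Thy1, a surface glycoprotein of T cells that neurons and stromal cells also carry, had 15.7, 15.3 and 16.6 CPM against 22.7, 26.8 and 28.03 CPM (log2 fold change 0.70, SE 0.127, edgeR adjusted p = 0.302). All its deleted libraries lay well above the controls. Prkcq, the kinase that couples the receptor to NF-kappaB, had 3.56, 2.49 and 2.33 CPM against 5.15, 6.79 and 8.65 CPM (log2 fold change 1.30, SE 0.282). The genotypes did not overlap for Prkcq, and it did not separate the Hoxb13 sets. The lower gene, Trat1, an adaptor of the receptor, had 8.06 CPM in NSD2fl/fl replicate 3 and at most 1.48 CPM in every other library, with log2 differences of -1.88 at high and -0.53 at low Hoxb13.

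Of 18 cytotoxic partners, 16 had log2 fold changes above 0, beside 43.7% of all tested genes. Of these partners 1 was past the threshold, Serpinb9, an inhibitor of granzyme B (10.6, 8.08 and 11.6 CPM against 12.3, 14.03 and 15.7 CPM, log2 fold change 0.47, SE 0.188). Ccl5, a chemokine stored by cytotoxic T cells and the most abundant of this role per length, followed Hoxb13 instead, with 3.19, 18.4 and 2.81 CPM against 6.28, 18.8 and 15.9 CPM. Of these 18 genes, 11 were higher in all 3 libraries of low Hoxb13 and 0 were lower in all 3, beside 9.55% and 12.8% of all tested genes. The same counts were 39 and 20 of 116 over the wider list, 9 and 5 of 29 for signalling genes, 4 and 4 of 15 for cytokines and their receptors, and 3 and 3 of 20 for transcription factors. Of 33 homing genes and epithelial partners, 3 were higher. Rgs1, a brake on chemokine signalling in tissue lymphocytes, had 9.04, 3.08 and 8.17 CPM against 13.9, 19.3 and 28 CPM (log2 fold change 1.59, SE 0.442, edgeR adjusted p = 0.312). Itga1, the collagen-binding integrin CD49a, which smooth muscle also carries, differed by 0.66 on the log2 scale (SE 0.202). Epcam, the epithelial adhesion molecule and the most abundant of this role per length, had 1431, 1874 and 1459 CPM against 1388, 1344 and 1233 CPM (log2 fold change -0.26, SE 0.183, edgeR adjusted p = 0.639). The epithelial ligand of CD103, Cdh1, was lower in every deleted library, with 1241, 1178 and 1128 CPM against 1075, 807 and 776 CPM (log2 fold change -0.42, SE 0.184, edgeR unadjusted p of 0.0591). Epcam was lower in every deleted library as well, and so were 7.28% of all tested genes. At high and then low Hoxb13, the log2 difference was -0.14 and -0.57 for Cdh1 and -0.06 and -0.54 for Epcam. Itgb7, the beta chain that pairs with CD103, had 15.01, 13 and 14.9 CPM against 14.9, 15.5 and 13.7 CPM, and Tnfrsf14, the ligand of CD160, 36.7 to 51.3 CPM. Cdh1 was named after its values were seen.

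Of 15 cytokines and cytokine receptors, 0 were past the threshold in either direction (edgeR, 0 with an unadjusted p under 0.05). Ifngr1, the interferon-gamma receptor and the most abundant of them per length, was lower in every deleted library (log2 fold change -0.37, SE 0.157), as were 7.28% of all tested genes. Its log2 difference was -0.06 at high and -0.67 at low Hoxb13. Interferon-gamma itself had at most 10 counts in a library, too few for a test. Of 20 transcription factors, 2 were higher. Satb1, a chromatin organiser of T cells, had 8.78, 7.997 and 6.32 CPM against 10.4, 20.9 and 17.8 CPM (log2 fold change 1.09, SE 0.282, edgeR adjusted p = 0.303). Gata3, the helper T cell factor, had 0.701, 0.622 and 0.477 CPM against 1.24, 1.01 and 0.94 CPM (log2 fold change 0.82, SE 0.329). Within the sets, at high and then low Hoxb13, the log2 difference was 0.49 and 0.84 for Thy1, 0.83 and 1.604 for Prkcq, and 0.14 and 0.87 for Serpinb9. It was 0.69 and 2.89 for Rgs1, 0.32 and 1.14 for Itga1, 0.49 and 1.27 for Satb1, and 1.03 and 0.61 for Gata3. Id3, the most abundant of the role per length, had a log2 difference of -0.17 (SE 0.208).

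Markers of some other cells moved with genotype too. The counts past the threshold given here are to be read beside 8.05% of all tested genes higher and 2.21% lower. Smooth muscle markers summed to 1393 to 4000 CPM in NSD2fl/fl and 4972 to 10664 CPM in NSD2∆IE, with 6 of 7 genes higher at the threshold of the study. Enteric neuron markers summed to 43.3 to 83.3 CPM and 103.5 to 132 CPM, with 6 of 6 higher. At high Hoxb13 the controls had 3951 and 4000 CPM for muscle and the deleted library 4972 CPM, and for neurons 83.3 and 64.1 against 103.5 CPM. At low Hoxb13 the single control had 1393 CPM for muscle against 6578 and 10664 CPM, and for neurons 43.3 against 132 and 127 CPM. The differences were thus larger at low Hoxb13, where they rest on NSD2fl/fl replicate 2. Adipocyte markers summed to 1.58 to 18.6 CPM and 13.5 to 50.4 CPM, with 2 of 5 tested genes higher and 4 of 6 listed genes at 0 in some library. The sum of 18.6 CPM, in NSD2fl/fl replicate 2, was nearly all Cidec (18.59 CPM), which was highest in the libraries of low Hoxb13. Adipoq, Cfd and Retn were higher in every deleted library, as were 11.4% of all tested genes, while Plin1 and Cidec overlapped. The part of smooth muscle, neurons and adipocytes in the results for Cd8b1 and the higher genes of the wider list was not tested. These genes include Thy1, Prkcq, Satb1 and Itga1. Natural killer cell markers were near the floor, with 3 of 6 genes tested and summed levels of 0.898 to 2.09 CPM and 1.95 to 3.25 CPM. B cell and follicle markers summed to 20.2 to 156 CPM and 33.6 to 104 CPM, macrophage markers to 238 to 305 CPM and 297 to 322 CPM, with 1 of 7 higher, and conventional dendritic cell markers, which share Itgae, to 13.2 to 15.9 CPM and 15.9 to 18.3 CPM. Mast cell markers summed to 82.3 to 121 CPM and 105 to 121 CPM, nearly all of it Kit. Plasma cell markers summed to 1548 to 2599 CPM and 1273 to 1738 CPM, with 1 of 5 lower, and epithelial markers to 9728 to 17241 CPM and 9892 to 11065 CPM, with 0 of 9 past the threshold. Of these 9 epithelial genes, 3 were lower and 0 higher in every deleted library, beside 7.28% and 11.4% of all tested genes. Their median log2 fold change was -0.30.

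The genes whose profile over the 6 libraries was most like that of the CD3 chains, among 13268 genes of an average log2 CPM of at least 1, were Kcnh3 (Pearson r = 0.999 with the mean centred log2 CPM of Cd3d, Cd3e and Cd3g), Smim38 (0.998), Tesc (0.996), Prex1 (0.996) and Ntrk2 (0.995). Kcnh3, a potassium channel gene, had 5.66, 24.5 and 2.86 CPM in NSD2fl/fl and 9.86, 30.1 and 30.9 CPM in NSD2∆IE. All 5 were highest in the 3 libraries of low Hoxb13, so the 6 points of each correlation fell into 2 clusters.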

How the data were processed

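Colon tissue of mice on HFCD was profiled by RNA-seq after TRIzol extraction, with 3 libraries of NSD2fl/fl and 3 of NSD2∆IE. Groups and replicate numbers came from the labels. The submitters' processing notes name fastp, HISAT2, HTSeq and R 3.2.0 and the build mm10. The annotation, the filters and the use of strand are not given in the sources used here. The authors deposited whole-number read counts per gene symbol, and FPKM values, which equal the counts divided by a fixed gene length and the library total (17863 genes checked, whole lengths to within 0.0638 bases).

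Counts were tested with edgeR 4.0.16 in R 4.3.3 (filterByExpr, TMM, quasi-likelihood test, two-sided, no covariate), with Benjamini-Hochberg adjustment over 16347 genes. Standard errors were derived from F (log2 fold change over its root). The fit was tested on simulated data. The members, the lists and the tests were chosen with earlier results of these data known. Named genes were the members and, per role of the wider list, the gene of highest mean FPKM and up to 4 genes of smallest p among those with an unadjusted p under 0.05, of which some are not reported here. Alternatives were RLE factors, upper-quartile factors, library totals, DESeq2 1.42.0, limma-voom and limma-trend on log2 FPKM (limma 3.58.1), no filter, a replicate block, the side of the first principal component as a covariate, a fold change over 1.5, and leaving out each library. No pair of libraries agreed within sampling noise (chi-square over degrees of freedom at least 35.5 for every pair).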

Additional observations from a re-analysis of the deposited data

How the results depend on the processing

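The direction of Cd3d, Cd3e, Cd3g, Cd4, Cd8a, Cd8b1 and Cd160 was kept in all 16 alternatives. No member reached an adjusted p under 0.05 except Cd8b1 with DESeq2 (log2 fold change 1.23, 1 member in place of 0), which called 466 genes in place of 5. The number of higher members was 2 with log2(FPKM + 1) and with log2(FPKM + 0.1) and 1 to 6 without 1 library each, and that of lower members 2 with the principal component covariate. Gzma reversed with that covariate (-0.56) and ranged from -0.33 to 2.02 without 1 library each. Gzmb reversed with limma-voom (-0.020), the replicate block (-0.017) and the covariate (-0.92) and ranged from -0.30 to 1.34. Itgae reversed with the covariate (-0.083) and ranged from -0.051 to 0.52. In the wider list the count of higher genes came to 19 under unscaled library totals, where 10.5% of all tested genes were higher. It came to 22 under log2(FPKM + 0.1), for which no share of all genes is given. Without 1 library each it was 4 to 27, the 27 beside 9.3% of all genes tested in that fit. The count of lower genes was 4 with DESeq2, 2 with limma-voom, 3 without a filter, 0 with log2(FPKM + 1) and log2(FPKM + 0.1), 2 with the replicate block, 2 with the covariate and 0 to 4 without 1 library each. The causes were not tested. The median of all log2 fold changes shifted by 0.127 under library totals and by 0.102 and 0.135 in the FPKM fits. The 9 log2 ratio differences moved by less than their own wide SD in every alternative, but without 1 library each 5 changed sign: Cd8b1 to Cd8a ranged from -0.22 to 0.97, Cd8a to CD3 from -0.17 to 0.56, Gzma to CD3 from -0.64 to 0.66, Gzmb to CD3 from -1.12 to 0.27 and Cd160 to CD3 from -0.0094 to 0.35. The replicate block changed no adjusted call of a member and gave 1 higher member. Same-numbered libraries deviated from their group means with correlations of 0.501, 0.643 and -0.166. Replicates 1 and 2 lay in the same Hoxb13 set in either genotype and replicate 3 did not. The correlations follow these sets, so they cannot decide whether the numbers pair the libraries.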
